A study of Mus musculus with 12 samples.

Results

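Imprinted genes, which are read mainly from the chromosome of 1 parent, were followed in mouse embryos at embryonic day 14.5, from RNA of the whole brain. The members are 36 gene symbols of 15 imprinted loci, and a member was found by an exact match of its symbol in the deposited tables. By background knowledge 20 of them were labelled paternally expressed and 13 maternally expressed. The other 3 (Grb10, Blcap and Gnas) were labelled mixed, since they depend on the tissue, the promoter or the isoform. Each member has 1 label, and whether it holds in every cell type of the brain was not tested. Of the 36 symbols, 35 had a row among the 40690 gene identifiers of the gene table, and 30 had 181 of the 84548 transcripts of the transcript table. The gene counts of 31 members passed the low-count filter and entered the tests with 16002 genes.

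The libraries came from 12 C57BL/6J embryos and were made with an oligo-dT kit, which selects polyadenylated RNA. LC1 is a conserved non-coding element upstream of Pou3f2, and the LC1 experiment holds 3 wild types (embryos 6, 26 and 73) and 3 embryos labelled as knockout (7, 22 and 71), all female. The RKI experiment holds 3 wild types (A2, A9 and A16) and 3 embryos homozygous for a knock-in of the human variant rs77910749 in this element (A1, A10 and A18), with 1 female and 2 males in each group. The protocol describes mutants and wild types as matched for sex and litter, but no label names a litter. No label states whether the LC1 deletion was on 1 or both chromosomes, and none gives the number of founder lines.

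Total gene counts per library ran from 18192984 to 26566769. All 15 neuronal and all 15 radial glia markers listed here passed the filter, and no listed marker of any cell type was at 0 in every library. Gene counts show neither mutation, and no check of the genotypes was made from them. They do not separate the parental chromosomes of an inbred strain either, so every value below is the sum over both. In whole tissue, fewer cells of a type and less RNA per cell cannot be told apart.

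Imprinting rests on DNA methylation set in the egg or the sperm at imprinting control regions, which the embryo maintains and which silences 1 parental copy of the genes nearby. At several loci a long non-coding RNA (H19, Meg3, Kcnq1ot1, Airn) is read from the chromosome opposite to the one that expresses protein-coding neighbours. Kcnq1ot1 and Airn silence neighbours on their own chromosome, while the control region of Igf2 and H19 works as an insulator between the genes and their enhancers. Many imprinted genes act on growth, such as Igf2 and its antagonists Igf2r, Grb10 and Cdkn1c. Others are strongly expressed in the developing brain, and loss of the paternally expressed Ndn, Magel2 and Snrpn or of the maternally expressed Ube3a is tied to Prader-Willi and Angelman syndromes in humans.

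The Prader-Willi and Angelman locus on chromosome 7 and the gene Grb10 on chromosome 11 supplied patterns described further on, and their promoters are shown for that reason. Each window holds 250 bases before and 50 bases after a RefSeq start in build GRCm38.p6, is written 5′ to 3′ on the gene's strand, and has its CG dinucleotides in capitals. Ndn (chr7:62348027-62348326, plus strand), Magel2 (chr7:62376729-62377028, plus), Mkrn3 (chr7:62420104-62420403, minus) and Peg12 (chr7:62464461-62464760, minus) are neighbours within 117.9 kb. The Grb10 window is chr11:12037371-12037670 on the minus strand.
Ndn: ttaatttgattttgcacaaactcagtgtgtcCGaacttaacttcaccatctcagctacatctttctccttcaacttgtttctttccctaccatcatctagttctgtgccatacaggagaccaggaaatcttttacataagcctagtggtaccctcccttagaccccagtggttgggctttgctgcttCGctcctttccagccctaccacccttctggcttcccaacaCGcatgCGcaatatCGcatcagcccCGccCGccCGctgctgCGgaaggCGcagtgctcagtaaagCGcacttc
Magel2: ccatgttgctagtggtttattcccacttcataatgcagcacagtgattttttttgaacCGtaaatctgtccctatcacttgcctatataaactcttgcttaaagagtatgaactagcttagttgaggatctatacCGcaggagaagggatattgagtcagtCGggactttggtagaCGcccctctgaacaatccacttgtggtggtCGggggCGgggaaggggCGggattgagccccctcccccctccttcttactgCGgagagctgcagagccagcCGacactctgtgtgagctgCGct
Mkrn3: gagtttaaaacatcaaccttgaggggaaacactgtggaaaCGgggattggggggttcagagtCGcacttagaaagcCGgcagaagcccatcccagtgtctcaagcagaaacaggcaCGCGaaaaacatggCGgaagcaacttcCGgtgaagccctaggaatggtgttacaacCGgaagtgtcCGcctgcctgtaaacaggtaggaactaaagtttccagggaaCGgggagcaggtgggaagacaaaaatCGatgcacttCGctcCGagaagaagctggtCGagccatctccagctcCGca
Peg12: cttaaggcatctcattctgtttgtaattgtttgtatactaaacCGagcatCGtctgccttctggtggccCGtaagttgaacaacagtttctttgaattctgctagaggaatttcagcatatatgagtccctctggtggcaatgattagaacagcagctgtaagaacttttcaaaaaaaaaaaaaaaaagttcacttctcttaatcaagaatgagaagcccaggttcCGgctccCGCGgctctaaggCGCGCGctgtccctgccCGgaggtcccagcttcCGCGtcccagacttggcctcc
Grb10: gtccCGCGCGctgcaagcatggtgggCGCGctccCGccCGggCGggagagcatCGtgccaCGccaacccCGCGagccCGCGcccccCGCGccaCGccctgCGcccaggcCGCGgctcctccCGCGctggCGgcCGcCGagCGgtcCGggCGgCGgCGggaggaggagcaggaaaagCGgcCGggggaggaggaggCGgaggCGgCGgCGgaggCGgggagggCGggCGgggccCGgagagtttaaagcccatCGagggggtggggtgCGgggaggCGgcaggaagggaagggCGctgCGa

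The 4 windows of the chromosome 7 neighbours held 11 (Ndn), 10 (Magel2), 15 (Mkrn3) and 12 (Peg12) CG dinucleotides, and the Grb10 window held 45. The RefSeq start of Ndn lies 1708 bases from the start of its transcript Ndn-001 in GENCODE M21. RefSeq windows were found for 30 members, with 46 windows in all. Their median was 13.5 CG dinucleotides against 7 over the 32851 windows of all genes, and 36 of the 46 lay above the median of all. The 46 are not independent, since windows of Gnas and of Mest overlap and those of Peg3 and Usp29 share 263 bases. Methylation, the chemical mark of imprinting, is placed on CG dinucleotides. The letters TGCCGC, which with a methylated CG are bound by ZFP57, a zinc-finger protein that maintains imprints, were searched on both strands. They occurred in 12 of the 46 windows (26.1%), from 11 members, Grb10 among them, and in 11.6% of all windows. These letters hold a CG themselves, and no comparison at equal CG content was made. TATAAA on either strand was found in 10 member windows (21.7%), that of Magel2 included, and in 13.6% of all. The core of the YY1 motif, GCCAT followed by any base and then TT, was found on either strand in 2 (4.35%), those of Mkrn3 and Ube3a, and in 6.05% of all. Overlap of one motif with another was allowed.

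The imprinted genes spanned a wide range of levels, led by the paternally expressed Nnat. Levels are compared between genes as RPKM, the reads of a gene scaled by its exon length and by the library total, as deposited by the authors. Nnat, a small membrane protein of the endoplasmic reticulum in neurons, was measured at 2311 RPKM in its lowest library, 2581 in the median and 2932 in the highest. Only 5 of the 16002 genes tested had a higher mean. Nnat alone took 0.4232% to 0.5369% of all counts, and the measured members together took 0.8981% to 1.057%.

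**Figure D1:**
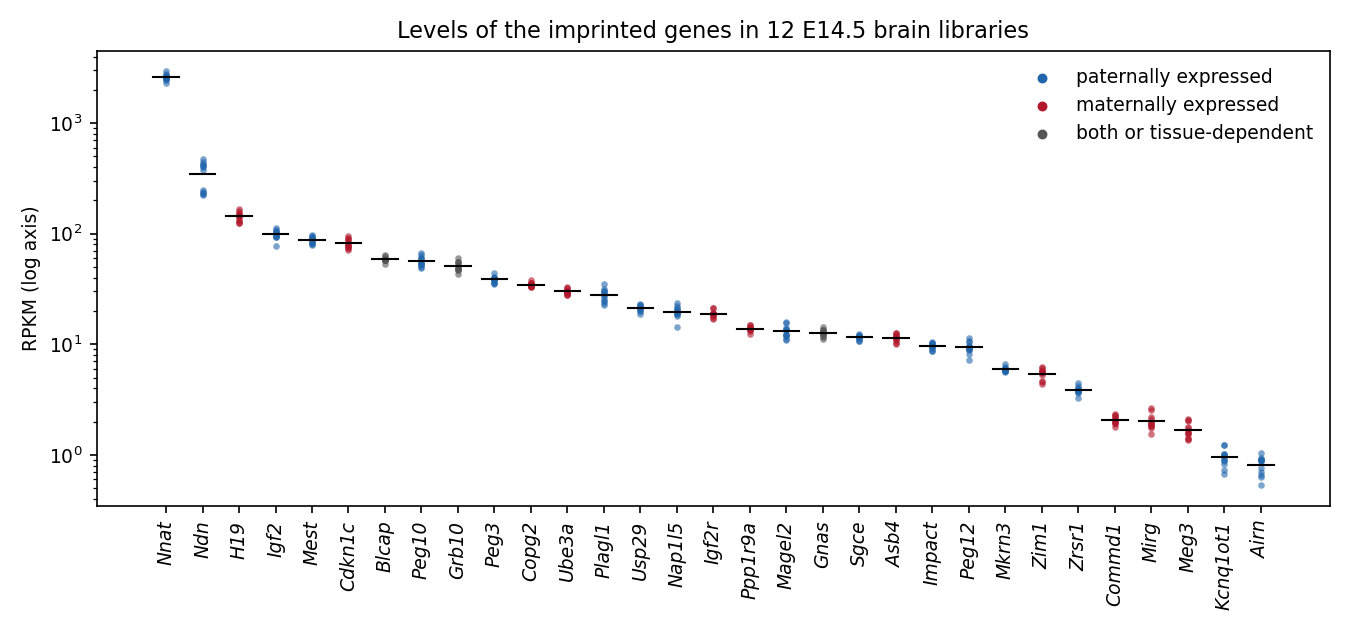
RPKM (log axis) of the 31 imprinted genes that passed the filter, in order of their mean (bar). Each of the 12 libraries has 1 point, coloured by the parental label of the gene. The means fall from 2608 for Nnat to 0.8106 for Airn, and the Ndn points form 2 separate sets.

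Below Nnat came Ndn, the MAGE-family protein necdin, with a mean of 343.7 RPKM over the 12 libraries. The maternally expressed non-coding RNA H19 followed with 143.1 and the growth factor Igf2 with 98.51. Mest, a hydrolase-like protein, stood at 88.19, Cdkn1c, the cell cycle inhibitor p57, at 81.81, and Blcap at 58.52 RPKM. At the low end of the order were Meg3 at 1.683, Kcnq1ot1 at 0.9457 and Airn at 0.8106 RPKM, all long non-coding RNAs, and the ratio of the highest to the lowest mean was 3220. Kcnq1ot1 has an annotated exon length of 93092 bases in GENCODE M21, the longest among the members, and RPKM divides by length.

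The median member had 18.93 RPKM against 5.917 for all genes tested, and 24 of 31 members lay above the latter value. The 17 measured paternally expressed genes had a median of 19.73 RPKM (0.8106 to 2608). The 11 maternally expressed genes had a median of 13.84 (1.683 to 143.1), so the ranges overlapped widely. Of the 30 neighbouring pairs in the order of mean levels, 9 had ranges over the 12 libraries that did not overlap. These steps were Nnat to Ndn, Ndn to H19, H19 to Igf2, Cdkn1c to Blcap, Copg2 to Ube3a, Igf2r to Ppp1r9a, Peg12 to Mkrn3, Zrsr1 to Commd1, and Meg3 to Kcnq1ot1. The other neighbours in the order had overlapping ranges, which does not show equal levels, since both genes were measured in the same libraries. Grb10 lay above Peg3, Plagl1 above Usp29 and Zim1 above Zrsr1 in every library. Others changed order between libraries, such as Igf2 and Mest, with 77.14 and 82.07 RPKM in embryo 71.

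Some members were at or near 0 in the gene table while the transcript table held reads for them. Dlk1, a paternally expressed Notch-like membrane protein, had a gene count of 0 or 1 in every library. Its transcript estimates summed to between 2136 and 3692, a mean of 118.7 CPM (counts scaled to a common library size with the TMM factors of edgeR). Rtl1, a retrotransposon-derived gene of the same locus, had 0 gene counts and transcript sums of 154 to 263. Both symbols carry 2 gene identifiers, and these sums hold both copies. The 20 Dlk1 transcripts came as 10 pairs with equal estimates, and the 2 Rtl1 transcripts were equal as well. The sources used here do not say whether reads were split between the copies or counted in both. Taken once, the equal estimates sum to 1068 to 1846 for Dlk1 (mean 59.35 CPM) and to 77 to 132 for Rtl1, so these levels are uncertain by this factor, while ratios between libraries are not affected. Among protein-coding symbols with 2 or more identifiers, 105 of 128 rows (82.0%) were at 0 in all libraries, against 3565 of 21647 rows (16.5%) of symbols with 1 identifier. A gene count of 0 for Dlk1 or Rtl1 is therefore read here as the state of the table and not as a level.

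Snrpn, a splicing protein of neurons, had no row in the gene table and 6086 to 9098 estimated counts in the transcript table (mean 288.5 CPM). Rian, a maternally expressed non-coding RNA of the locus of Dlk1 and Rtl1, was listed at 0 gene counts in all libraries and had no transcript row. Its 0 is not read as a level either. Meg3 and Mirg of the same locus, and H19, Kcnq1ot1 and Airn, had no transcript row as well. Their gene counts could therefore not be set against transcript estimates. Phlda2, a growth inhibitor best known from the placenta, had 1 to 5 counts per library and did not pass the filter. For Gnas, the stimulatory G protein alpha subunit, gene counts came to 17.9% of the transcript sum, and for Commd1, a copper metabolism protein, to 30.2%. At the other extreme Igf2r stood at 203%, Peg3 at 196%, Ppp1r9a at 193% and Peg10 at 174%. Over 12641 genes the median was 95.1%, and 8.48% of the genes lay under 25%, so the order of RPKM levels above holds for the gene table only.

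Several members share exons with another gene, and the sources used here do not say whether the counting used strand. By GENCODE M21 (GRCm38), exons of the opposite strand cover 23.1% of Mest and 17.8% of Copg2, which overlap each other. Snhg14 and other genes of the opposite strand cover 27.3% of Ube3a, Nespas and Gm20721 cover 22.0% of Gnas, and Gm49394, on the same strand, covers 62.8% of Igf2. Reads of these partners cannot be told apart from those of the members.

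Embryo to embryo the imprinted genes varied about as much as other genes, with Ndn as the exception. The standard deviation within groups on the log2 scale had a median of 0.128 over the members and 0.123 over all genes tested. Sgce, epsilon-sarcoglycan, had 0.06 and Usp29, a deubiquitinase of the Peg3 locus, 0.065, at the 9.0 and 12.8 percentiles of all genes. The non-coding RNAs Kcnq1ot1 (0.256), Meg3 (0.247), Mirg (0.237) and Airn (0.232) were among the most variable members. Ndn had the highest value at 0.423, the 93.6 percentile.

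The Ndn level fell into 2 sets of libraries that followed none of the 4 groups. In CPM, the LC1 wild types had 792.4 (embryo 6), 370.0 (26) and 671.8 (73), and the LC1 knockouts 745.4 (7), 693.9 (22) and 656.8 (71). The RKI wild types had 379.5 (A2), 387.1 (A9) and 620.3 (A16), and the homozygous embryos 702.9 (A1), 409.7 (A10) and 399.8 (A18). Thus 5 libraries lay between 370.0 and 409.7, 7 lay between 620.3 and 792.4, and none lay in between. The 5 lower libraries were 1 LC1 wild type, 2 RKI wild types and 2 RKI homozygous embryos, of both sexes.

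The gap between the sets was 0.60 on the log2 scale, or 1.51-fold. Ndn counts were 6776 to 17856 per library, and the estimates of its single transcript split the same way, at 305.4 to 330.5 CPM against 519.9 to 631.0. Of 10809 genes with a mean above 3 on the log2 CPM scale, 4 had a gap as wide with at least 3 libraries on each side. The other 3 were Gabra2, which separated LC1 from RKI libraries, Xist, which separated the sexes, and Wdfy1, which was high in 4 RKI libraries. None of them divided the libraries as Ndn did.

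The neighbours of Ndn did not follow it. Magel2, a MAGE-family protein of hypothalamic neurons, had 52.79, 64.98 and 62.22 CPM in the LC1 wild types 6, 26 and 73, with no drop in embryo 26. Over all libraries Magel2 ran from 49.82 to 75.91, Mkrn3, a RING-finger protein that restrains puberty, from 14.28 to 16.67, and Peg12, a binding partner of GSK3, from 19.22 to 29.51 CPM. Their widest gaps between libraries were 0.10 (Magel2), 0.04 (Mkrn3) and 0.14 (Peg12) on the log2 scale. The transcript sum of Snrpn ran from 244.0 to 316.9 CPM.

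**Figure D2:**
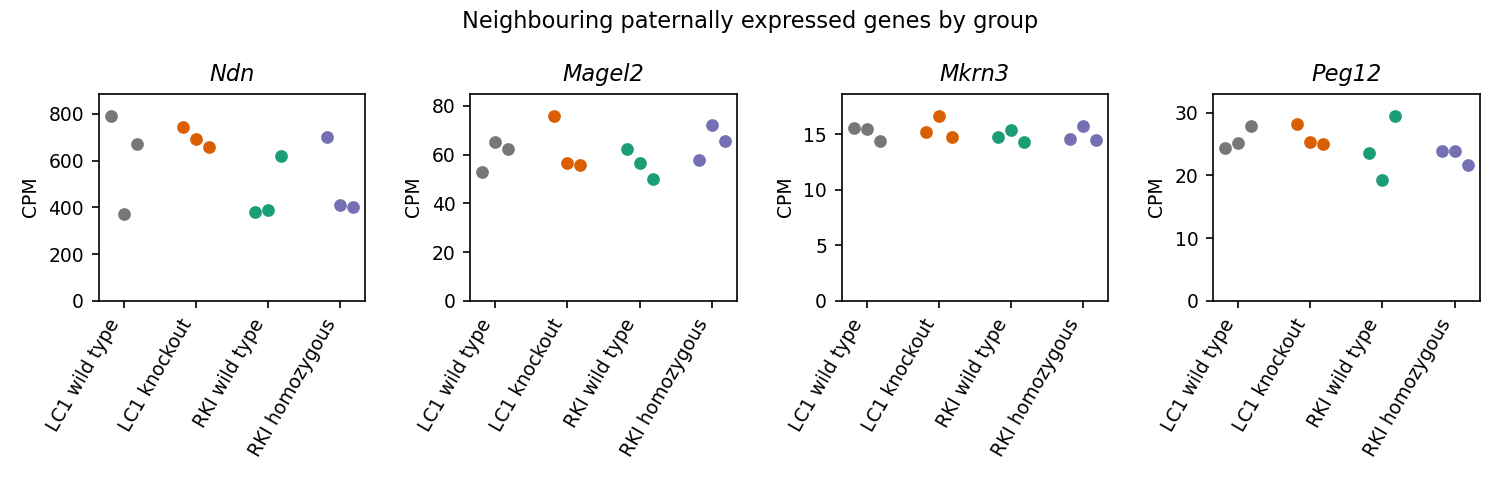
CPM of Ndn, Magel2, Mkrn3 and Peg12 in the 12 libraries by group, 1 point per embryo, each axis starting at 0. Ndn takes values of 370.0 to 409.7 or of 620.3 to 792.4 with none in between, and the 3 neighbours show no such division.

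The LC1 comparison asks whether the brains with the element deleted differ from wild type, and no imprinted gene passed the test. Values are log2 fold changes of the quasi-likelihood test of edgeR with Benjamini-Hochberg adjustment over 16002 genes, knockout over wild type. Of the 31 members 0 were called, as was 0.0% of all genes, and DESeq2 and limma-voom called 0 members as well. At an unadjusted p under 0.05 there were 0 members and 334 genes (2.09%). The median over the members was 0.02 with 16 of 31 positive, against a median of 0.00 over all genes, and the median absolute change was 0.06 in the members and 0.07 in all genes. Without knockout embryo 7 the median was -0.04 with 11 of 31 positive.

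Named by the smallest p, Sgce had 37.97, 38.33 and 35.42 CPM in the wild types and 35.39, 35.60 and 32.73 in the knockouts. Only wild type 73 and knockout 22 kept the groups from separating, and the log2 fold change was -0.11 ± 0.07 (SE, n = 3 against 3, edgeR adjusted p = 1.0). Airn, the antisense RNA that silences Igf2r on the paternal chromosome, had 2.28, 3.276 and 3.225 CPM against 2.402, 2.72 and 1.893, a difference of -0.30 ± 0.20 (edgeR adjusted p = 1.0) that was -0.18 without knockout 71 and -0.46 without wild type 6. These are the lowest counts among the measured members, 35 to 90 per library. Igf2r itself had a mean of 173.6 ± 6.55 CPM (SD, n = 3) in the wild types and 179.3 ± 23.3 in the knockouts.

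Igf2 had 621.0, 539.7 and 545.2 CPM in the wild types and 592.3, 532.5 and 441.1 in the knockouts, with the lowest of all libraries in embryo 71. H19, which lies 72.6 kb from it, had 400.4, 329.8 and 307.6 against 363.2, 294.0 and 293.1 CPM. The groups overlapped for both genes. The differences were -0.12 ± 0.10 for Igf2 and -0.13 ± 0.11 for H19, both with an adjusted p of 1.0 in edgeR, while Igf2 had -0.01 without knockout 71 and H19 had -0.01 without wild type 6. Beside them, 18 of the 20 meningeal and mesenchymal markers had negative values (median -0.15), and so did all 15 microglia and macrophage markers (median -0.19), none of them called.

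The summed level of the meningeal list was 1909 to 2195 CPM in the LC1 wild types and 1673 to 2099 in the knockouts. That of the microglia list was 190.7 to 242.5 against 180.5 to 188.2 CPM. Their part in the Igf2 and H19 values was not tested. Usp29, the third by p, is described with the RKI result below.

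The RKI comparison asks the same of the homozygous knock-in, and again no imprinted gene passed the test. edgeR, DESeq2 and limma-voom called 0 of 31 members, and edgeR called 0.0% of 16002 genes. At an unadjusted p under 0.05 there were 1 member, Usp29, and 307 genes (1.92%). The median was 0.04 with 23 of 31 members positive, against 0.00 over all genes, and the median absolute change was 0.06 in both. The count of 23 fell to 17 without A2, without A9 or without A10, and to 18 without A18. The runs without A9 and without A10 are not separate checks. Each leaves 1 RKI female, which the sex term takes up, so both compare 2 homozygous males with 2 wild-type males. Positive values were held by 12 of 17 paternally expressed genes, Nnat (0.10 ± 0.08) and Magel2 among them. Of 11 maternally expressed genes 9 were positive, counting Ube3a, whose value rounds to 0.00.

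Usp29 alone among the 31 members had groups that did not overlap, and it had them in both experiments. In CPM, the LC1 wild types had 57.55, 59.25 and 56.03 and the knockouts 55.04, 55.65 and 52.36, so all knockouts were lower. The RKI wild types had 52.08, 56.33 and 48.70 and the homozygous embryos 60.66, 57.07 and 60.18, so all mutants were higher. Over all genes, groups without overlap were seen in 7.16% in LC1 (3.36% higher and 3.81% lower in the mutants) and in 5.67% in RKI (2.59% higher and 3.07% lower). Among the members it was 1 of 31 in each.

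The log2 fold change of Usp29 was -0.08 ± 0.07 (SE) in LC1 and 0.18 ± 0.06 in RKI, each with an adjusted p of 1.0 in edgeR. The difference between the RKI and LC1 effects, tested as an interaction in the same fit, was 0.26 with a 95% interval of 0.08 to 0.44 (edgeR adjusted p = 1.0). In this test 0.0% of genes were called, 1 member and 388 genes (2.42%) had p under 0.05, and 19 of 31 members were positive. Sgce (0.18), Plagl1 (-0.29), Nap1l5 (0.30) and Copg2 (0.11) followed, each with an adjusted p of 1.0, but Copg2 turned to -0.02 when the transcript estimates were summed per gene.

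The RefSeq start of Usp29 lies 164 bases from that of Peg3 on the opposite strand of chromosome 7, and 263 bases of their promoter windows are shared. The Usp29 window (chr7:6730333-6730632, plus strand, GRCm38.p6, CG dinucleotides in capitals) is shown because both genes are members of the locus while only Usp29 was among the 5 smallest p.
Usp29: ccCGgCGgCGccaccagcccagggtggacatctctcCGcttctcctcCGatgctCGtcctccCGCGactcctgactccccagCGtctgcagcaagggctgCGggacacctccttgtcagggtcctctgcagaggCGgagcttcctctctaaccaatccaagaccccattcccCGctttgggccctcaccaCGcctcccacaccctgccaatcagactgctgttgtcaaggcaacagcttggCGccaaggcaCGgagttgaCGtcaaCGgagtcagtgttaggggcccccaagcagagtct

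This window holds 17 CG dinucleotides and none of the 3 motifs searched. The 1 Usp29 transcript of the deposited table, Usp29-201, starts 230577 bases from this RefSeq start, so its reads do not show which start was used. Peg3, a zinc-finger protein, had 508.8 ± 31.4 and 538.4 ± 47.9 CPM (SD, n = 3) in the LC1 wild types and knockouts, and 505.1 ± 21.9 and 509.6 ± 28.8 in the RKI wild types and homozygous embryos. Over the 12 libraries Peg3 and Usp29 had a Pearson r of -0.27 (permutation p = 0.39).

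The other 4 genes with the smallest p in RKI overlapped between the groups. Nap1l5, a nucleosome assembly protein-like gene, had 35.30, 39.83 and 26.67 CPM in the wild types and 44.58, 36.42 and 36.25 in the homozygous embryos (0.21 ± 0.12). Magel2 had 62.39, 56.46 and 49.82 against 57.93, 72.11 and 65.64 CPM (0.21 ± 0.12). For Nap1l5 the wild type A16 was the lowest of all 12 libraries, and the log2 fold change was 0.06 without it and 0.07 without A1. The log2 fold change was 0.38 without A9 or without A10, runs that both compare the RKI males alone. That of Magel2 was 0.33 without A2.

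Plagl1, a zinc-finger transcription factor that restrains growth, had 218.7, 173.2 and 250.8 CPM in the wild types and 181.5, 195.1 and 185.8 in the homozygous embryos (-0.18 ± 0.11). Blcap had means of 170.1 ± 10.1 and 180.9 ± 7.1 CPM (0.09 ± 0.06). All 4 had an adjusted p of 1.0 in edgeR. For Plagl1 the wild types spread on both sides of the mutants, and its value was -0.07 without A16. It was -0.35 without A9 or without A10, where again the males alone were compared. In the same comparison 13 of 15 neuronal markers had positive values (median 0.08) and 12 of 15 radial glia markers negative ones (median -0.10), none called. The radial glia list summed to 3218 to 3844 CPM in the wild types and 3221 to 3444 in the homozygous embryos, and the neuronal list to 8251 to 9460 and 9012 to 9473. Their part in the values of Usp29 and Plagl1 was not tested.

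**Figure D3:**
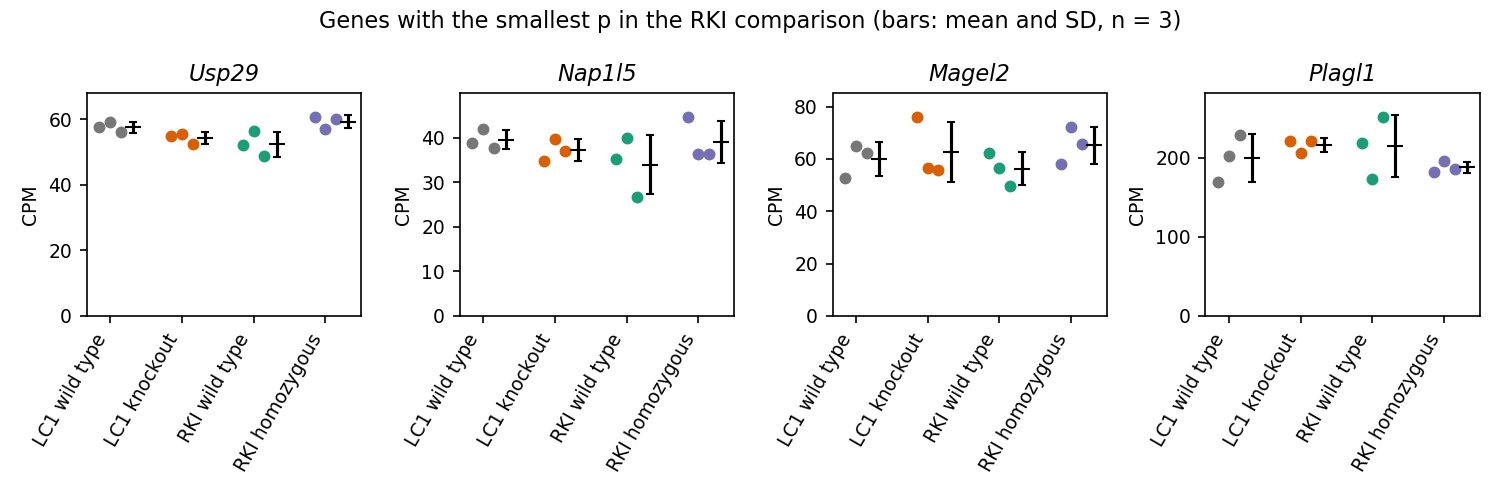
CPM of Usp29, Nap1l5, Magel2 and Plagl1 in the 4 groups, 1 point per embryo, with the mean and SD of each group (n = 3) and axes that start at 0. Only for Usp29 do wild types and mutants not overlap, in RKI at 48.70 to 56.33 and 57.07 to 60.66, and in LC1 at 56.03 to 59.25 and 52.36 to 55.65.

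**Figure D4:**
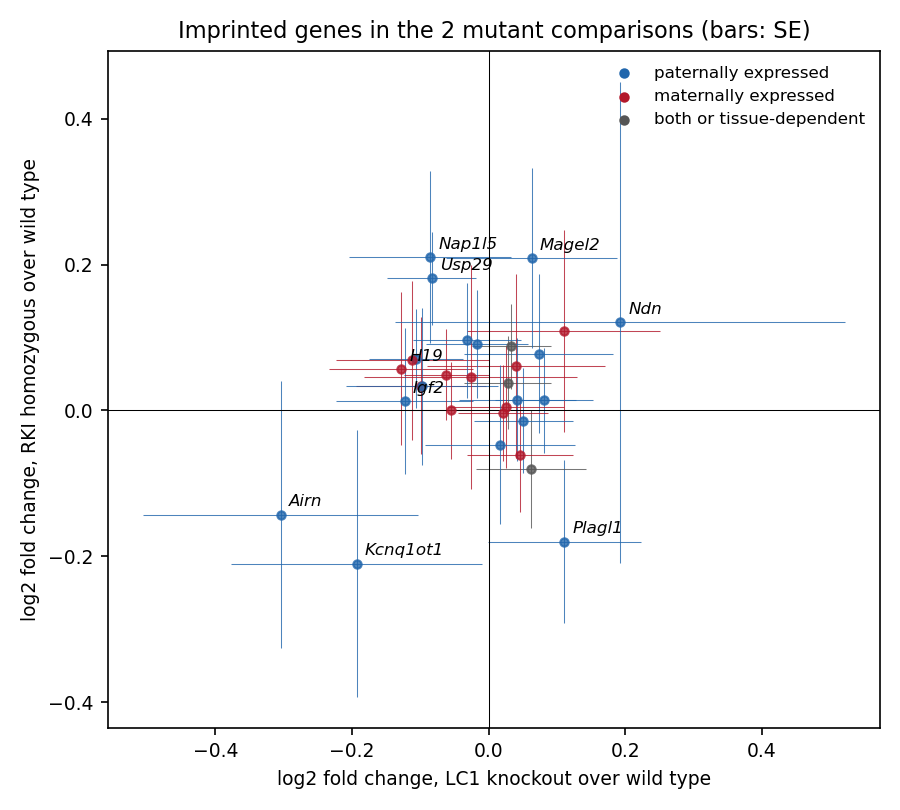
Log2 fold change of the 31 imprinted genes in LC1 knockouts (horizontal) and RKI homozygous embryos (vertical), each over its own wild types, with standard errors as bars. The values lie between -0.30 and 0.19 in LC1 and between -0.21 and 0.21 in RKI, and Ndn has the widest bars.

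The authors' deposited tables of the same comparisons gave the same count of called members. In the authors' deposited table for LC1, 33 members were among 25842 genes, and 0 genes had an adjusted p under 0.05. The authors' deposited table gave 4 members and 4.32% of all genes an unadjusted p under 0.05, the members with log2 fold changes of 0.25 for Ndn (adjusted p = 0.857), -0.12 for Igf2, -0.12 for H19 and -0.20 for Kcnq1ot1. In the authors' deposited table for RKI, 32 members were among 26194 genes, 0 genes were called, and 2.76% had an unadjusted p under 0.05. In the authors' deposited table Magel2 had 0.21, Usp29 0.18 and Plagl1 -0.19, the 3 members with p under 0.05. The signs of the authors' deposited RKI table were turned so that positive means higher in the homozygous embryos.

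Dlk1, Snrpn and Rtl1, missing from the gene tests, and Gnas, which was in them, were read from transcript sums per gene. This fit of 16600 genes was added after the data were seen. In LC1 Dlk1 had a log2 fold change of 0.02 ± 0.16, Snrpn of 0.00 ± 0.08, Rtl1 of -0.10 ± 0.15 and Gnas of -0.02 ± 0.06. In RKI the same genes had 0.00 ± 0.15, 0.10 ± 0.08, -0.08 ± 0.15 and 0.00 ± 0.06. No member was called in these fits, where 0.0% of genes were called in LC1 and 0.0241% in RKI. The same held for the difference between the effects (0.0181% of genes), the wild types of both experiments (0.00602%) and sex (0.0542%).

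Of the members' transcripts, 104 from 29 genes had a mean of at least 1 CPM, and 0 were called by edgeR in either comparison, as was 0.0% of 47772 transcripts. Unadjusted p under 0.05 was reached by 2 of them in LC1 and by 1 in RKI, against 2.97% and 2.45% of all transcripts. The 2 in LC1, Gnas-004 and Gnas-019, have equal estimates and are 1 measurement, with 1.42, 1.696 and 1.715 CPM in the LC1 wild types and 1.117, 0.7777 and 0.4111 in the knockouts. Their groups did not overlap, which held with lower knockouts for 3.79% of all transcripts, and the log2 fold change was -1.06 ± 0.40 (edgeR adjusted p = 1.0). Each made up 0.2% of the Gnas estimates, while Gnas-201 made up 76.9%.

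Next in LC1 were Igf2-001 (-0.35), Igf2-005 (-0.37) and Cdkn1c-001 (-0.33). In RKI, Usp29-201 had 0.19 ± 0.08 (edgeR adjusted p = 1.0). Plagl1-024 had -1.87 ± 1.03 with values of 0.0 to 1.399 CPM in the homozygous embryos and 1.106 to 3.603 in the wild types. Impact-201 had 0.18, Magel2-001 0.26 and Snrpn-001 0.17. Isoform shares were steady for Mest-001, at 97.4% of the estimates of its gene (97.0% to 97.9%), and for Grb10-005, at 89.1% (86.0% to 93.3%). Members with 1 listed transcript, such as Ndn, are at 100% by construction. The shares varied more for Sgce, with Sgce-004 at 10.8% to 52.8% over libraries. They also did for the 2 main Peg10 transcripts, whose starts lie within 0.1 kb, with Peg10-002 at 38.2% to 73.4%. Zim1-001 ran from 52.4% to 81.0% and Cdkn1c-002 from 60.7% to 80.9%.

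The machinery that keeps imprints, such as DNA methyltransferases and the ZFP57 and CTCF systems, was also read. Of 29 listed regulators 26 were tested, and 0 were called in LC1 or RKI. In LC1 20 of 26 were positive (median 0.04), and Arid4a (-0.12), Ctcf (0.09) and Arid4b (-0.12) had the smallest p. In RKI 12 of 26 were positive (median -0.01), with Dnmt3b (-0.24) and Ezh2 (-0.08) among those of smallest p. Ctcf binds the unmethylated control region between Igf2 and H19, and Dnmt3b is a de novo DNA methyltransferase.

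Other imprinted genes outside the 36 were listed as well, and 39 of 50 were tested with 0 called. In LC1 18 of 39 were positive (median -0.01), with Slc38a4 (-0.29), Herc3 (0.15) and Phactr2 (0.11) first. In RKI 30 of 39 were positive (median 0.04), with Ddc (0.41), Phactr2 (-0.19) and Slc22a2 (0.69) first. Of the IGF axis, the receptors, binding proteins and substrates around Igf2, 23 of 24 were tested and 0 called. In LC1 16 of 23 were positive (median 0.03), with Irs2 (0.13), Irs4 (0.25) and Ide (-0.38) first. In RKI 9 of 23 were positive (median -0.05), with Igf2bp2 (-0.17), Igf1 (0.21) and Igf2bp3 (-0.17) first. All had an adjusted p of 1.0 in edgeR.

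The wild types of the 2 experiments and the sexes were compared in the same fit, in which experiment and mouse line cannot be told apart. RKI wild types against LC1 wild types gave 0 of 31 members called and 0.0125% of all genes, with 0 members and 623 genes (3.89%) at p under 0.05. Of the members 8 of 31 were positive (median -0.04), and 15 of 31 without RKI wild type A9. The smallest p belonged to Cdkn1c (-0.22 ± 0.12), Gnas (-0.14 ± 0.08), Peg12 (-0.24 ± 0.14), Ndn (-0.68 ± 0.41) and Impact (-0.14 ± 0.09), a regulator of the GCN2 kinase, with adjusted p-values of 1.0 in edgeR. Without A9, Peg12 had 0.10 and Gnas -0.32, and without A10 Gnas had -0.04. Without wild type 6, Cdkn1c had -0.12 and Ndn -0.44.

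Ndn was called in this comparison only when the low-count filter was dropped (log2 fold change -0.67, edgeR adjusted p = 3.09e-13). edgeR shrinks the dispersion of each gene toward a trend, with a weight given as prior degrees of freedom. Ndn had 0.47 of these with the filter and an unlimited number without it, where 27458 genes were fitted, so the spread between embryos shown above counted little in the second fit. Its groups overlapped in CPM, as listed above.

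Male against female, which only the RKI libraries inform, gave 0 of 31 members called and 0.05% of all genes, with 0 members and 829 genes (5.18%) at p under 0.05. Mirg, a non-coding RNA that hosts microRNAs, had -0.31 ± 0.15 (edgeR adjusted p = 0.89), with -0.06 without A10 and -0.55 without A9, the 2 female embryos of RKI. Mest (0.14), Peg12 (0.20), Grb10 (0.14) and Blcap (-0.10) followed, and without A9 Peg12 had -0.06, Grb10 -0.02 and Mest 0.06. Commd1 had 0.05 ± 0.12 (edgeR adjusted p = 0.971) in the gene counts and 0.28 ± 0.08 (adjusted p = 0.895) in the transcript sums.

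Neighbours at an imprinted locus that are labelled as read from opposite chromosomes were asked whether they rise and fall together from embryo to embryo. Pearson r and Spearman rho of log2 CPM over the 12 libraries were tested by permutation (100000 resamples, two-sided) with adjustment over 19 pairs, and 2 pairs were called. Igf2 and H19, which share enhancers and are labelled as read from opposite chromosomes, had r = 0.85 (permutation p = 0.00025, adjusted p = 0.00475) and rho = 0.84 (p = 0.00125, adjusted p = 0.0128). Within LC1 r was 0.82 and within RKI 0.87, and it was 0.85 without the 2 libraries farthest from the median of Igf2.

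Peg10, a retrotransposon-derived gene, and Asb4, a SOCS-box protein read from the maternal chromosome, lie 622.9 kb apart and had r = 0.77 (permutation p = 0.00368, adjusted p = 0.035) and rho = 0.83 (p = 0.00135, adjusted p = 0.0128). Within LC1 r was 0.80 and within RKI 0.87, and without the 2 farthest libraries 0.62 (permutation test, adjusted p = 0.312). This call was kept in 4 of the 12 permutation tests that left out 1 library, with adjusted p-values of 0.0154 to 0.151. It was kept without 6, 71, A9 or A1 and lost without 26, 73, 7, 22, A2, A16, A10 or A18, while Igf2 and H19 kept theirs in all 12. With 6 libraries in an experiment no pair passed the adjustment within LC1 or within RKI. The direction of these values was the same in both.

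Of the 9 neighbouring pairs of 1 maternally and 1 paternally expressed gene, 7 had a positive r, and Nnat with Blcap, whose parental expression is mixed, had 0.45. Dlk1 and Meg3 had -0.64 (permutation p = 0.0264, adjusted p = 0.167), with -0.69 within LC1 and -0.74 within RKI. On deviations from the group means Dlk1 and Meg3 passed, at -0.72 (permutation test, adjusted p = 0.0424). Cdkn1c and Kcnq1ot1 had -0.40, Igf2r and Airn 0.17, and Snrpn and Ube3a 0.07, none of them called. Of pairs read from the same chromosome, Peg10 and Sgce had 0.41, Magel2 and Mkrn3 0.11, and Dlk1 and Rtl1 -0.51. Igf2 and Dlk1, both fetal growth genes of different loci, had 0.59 (permutation test, adjusted p = 0.197). On deviations from the group means they had 0.81 (permutation test, adjusted p = 0.00944), with the same limit. Igf2 and Cdkn1c had 0.50. The 4 listed pairs with Ndn were given no r, since its libraries fall into separate sets, and 3 pairs with Rian or Phlda2 had no measured level.

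All 435 pairs of 30 members, without Ndn, were then computed, which was added after the data were seen. The pairs within a locus had a median r of 0.14 (22 pairs) and those between loci of 0.02 (413 pairs). Adjusted over 435 pairs 3 passed, all positive. No share over pairs of other genes stands beside this count or that of the listed pairs. Neither is read as particular to imprinted genes. Peg12 and Grb10, on chromosomes 7 and 11, had r = 0.92 (permutation p = 1e-05, the smallest the resamples can give, adjusted p = 0.00435) and rho = 0.92 (adjusted p = 0.0348). Within LC1 r was 0.75, within RKI 0.93, and without the 2 farthest libraries 0.85.

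The second pair was Meg3 and Mirg, which lie 158.0 kb apart on the same strand of chromosome 12. They had r = 0.88 (permutation p = 0.00014, adjusted p = 0.0304) and rho = 0.87 (adjusted p = 0.115), with 0.91 within LC1, 0.84 within RKI and 0.86 without the 2 farthest libraries. The third was Igf2 and H19. The lowest values were those of Igf2 with Mirg (-0.77), Igf2 with Meg3 (-0.76) and Usp29 with Plagl1 (-0.76), none of which passed the adjustment.

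Levels of some members rose and fell with lists of cell type markers, while no share of cells was measured. Each of 30 members was set against the mean log2 deviation of 9 marker lists, 270 relations that were added after the data were seen. By r 9 passed the adjustment, 2 of them also by rho. No share over all genes stands beside these counts, so they are not read as particular to imprinted genes. Igf2 followed the meningeal and mesenchymal list, with r = 0.93 (permutation p = 2e-05, adjusted p = 0.0036) and rho = 0.91 (adjusted p = 0.0202). Within LC1 r was 0.98, within RKI 0.95, and without the 2 farthest libraries 0.89. H19 had r = 0.90 with the same list (permutation p = 3e-05, adjusted p = 0.0036) and rho = 0.93 (adjusted p = 0.0081), with 0.91 within LC1, 0.93 within RKI and 0.89 without the 2 farthest. Igf2 is known to be expressed in the meninges and the choroid plexus of the developing brain. Embryo 6 had the highest meningeal value, 0.22 on the log2 scale, and embryo 71 the lowest, -0.27.

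Plagl1 went against the neuronal list and with the radial glia list. With neurons it had r = -0.90 (permutation p = 4e-05, adjusted p = 0.0036) and rho = -0.85 (adjusted p = 0.0801), with -0.82 within LC1, -0.96 within RKI and -0.90 without the 2 farthest. With radial glia, the progenitors of neurons, it had r = 0.89 (permutation p = 0.00011, adjusted p = 0.00742) and rho = 0.80 (adjusted p = 0.167), with 0.78 within LC1, 0.98 within RKI and 0.82 without the 2 farthest. Usp29 had r = -0.85 with radial glia (permutation p = 0.00051, adjusted p = 0.0229) and rho = -0.73 (adjusted p = 0.195), with -0.60 within LC1, -0.93 within RKI and -0.72 without the 2 farthest.

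Grb10 and Peg12, the pair above, had r = -0.81 (permutation p = 0.00134, adjusted p = 0.0452) and -0.82 (p = 0.00156, adjusted p = 0.0468) with the neuronal list. Their rho was -0.73 and -0.64 (adjusted p = 0.195 and 0.266), their r within LC1 -0.51 for both and within RKI -0.93 and -0.91, and without the 2 farthest libraries -0.61 and -0.67. Commd1 had r = 0.85 with erythroid markers (adjusted p = 0.0243, rho 0.78 with adjusted p = 0.195, 0.81 within LC1, 0.93 within RKI, 0.76 without the 2 farthest). H19 had r = 0.78 with microglia and macrophages (adjusted p = 0.0229, rho 0.76 with adjusted p = 0.195, 0.80 within LC1, 0.88 within RKI, 0.69 without the 2 farthest). These p-values are from the permutation test. What part the cell makeup of the samples has in the pairs of members that move together was not tested.

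**Figure D5:**
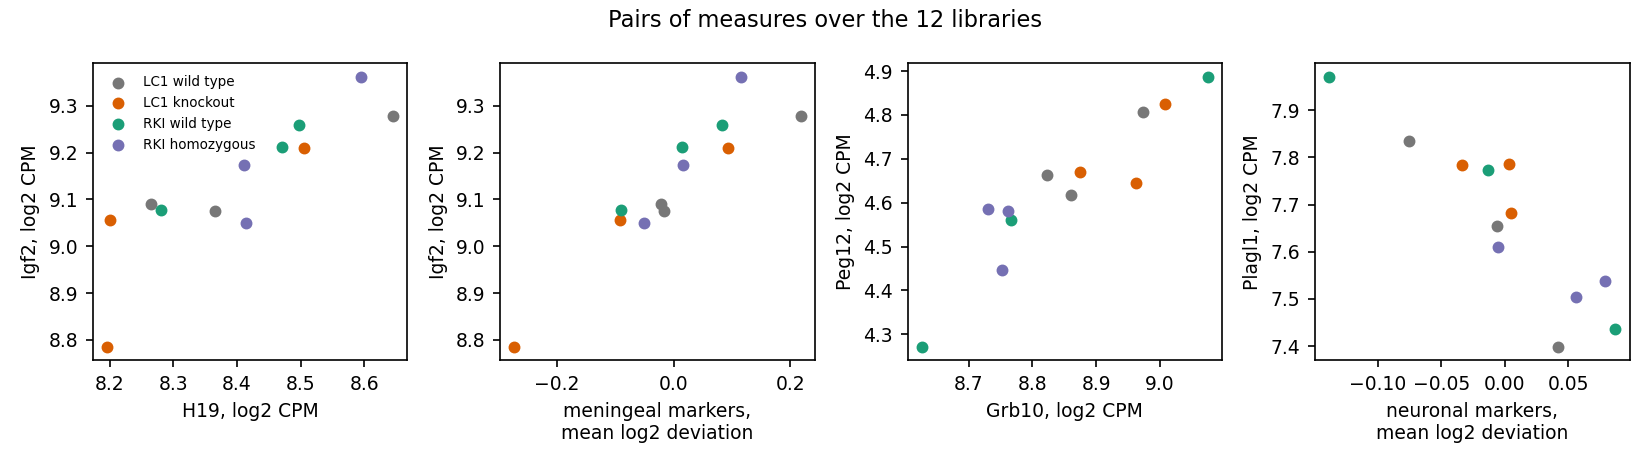
Log2 CPM over the 12 libraries, coloured by group, of Igf2 against H19, Igf2 against the meningeal list, Peg12 against Grb10, and Plagl1 against the neuronal list, where a list value is the mean log2 deviation of its genes. Pearson r is 0.85, 0.93, 0.92 and -0.90 in this order, and embryos of all 4 groups lie along each trend.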

How the data were processed

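The members and all gene lists were chosen with earlier results of these data known. The submitters' processing notes name STAR 2.0.4b, featureCounts 1.4.5, Subread, edgeR and limma without roles, while no source used here gives the genome build, the annotation or the strand setting. The authors deposited whole-number counts per gene with no normalization, and repeated identifiers (574 rows with equal values) were kept once. The authors deposited RPKM per gene, which match these counts scaled by library total within 0.0084% over 12441 genes. The deposited estimated counts per transcript, whose tool is not named, were rounded before testing. The authors' deposited comparison tables list log2 fold changes with their p-values, from a model that is not stated. The 24 per-sample columns inside the authors' 4 comparison tables and the transcript RPKM were not used.

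Counts were fitted with edgeR 4.0.16 (R 4.3.3): TMM scaling, filterByExpr, robust quasi-likelihood test, all 12 libraries in 1 fit of 4 group means and sex (7 residual degrees of freedom), and Benjamini-Hochberg adjustment at 0.05 over 16002 genes, 47772 transcripts or 16600 transcript sums. The common biological coefficient of variation was 6.94%. Standard errors come from the fold change and its F statistic. On simulated counts for the LC1 comparison (15847 genes), 100% of changes of 1 and 89% of changes of 0.5 on the log2 scale were recovered, with 10 false calls. The simulation gave all genes 1 fixed spread and changed 100 genes of higher count at each size. The members differ in spread, up to a within-group SD of 0.423 for Ndn, so these shares are not the power for each member. Embryos are the replicates, and p-values measure the spread between them. Described per comparison were members past the threshold or else the 5 with the smallest p, the 3 with the smallest p of each other list, and the 5 transcripts of at least 1 CPM with the smallest p; 1 gene that this rule picks is not reported here. Correlations used log2 CPM (prior count 2), permutations from numpy 2.4.6 and ranks from scipy 1.17.1. Alternatives were DESeq2 1.42.0, limma-voom (limma 3.58.1), other scaling, no filter, no sex term, 1 experiment alone, a block on neighbouring embryo numbers and each library left out. Transcript sums, all pairs, marker correlations and the widest gaps were added after the data were seen. Positions are from GENCODE M21 (GRCm38), which holds 98.9% of the gene identifiers, and promoters from RefSeq (GRCm38.p6).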

Additional observations from a re-analysis of the deposited data

Results flagged for a closer look

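The estimates for Usp29 had opposite signs in the 2 experiments, but that in LC1 was -0.08 with a 95% interval of -0.21 to 0.04. All 3 LC1 knockouts were lower than all 3 LC1 wild types (55.04, 55.65 and 52.36 against 57.55, 59.25 and 56.03 CPM). All 3 RKI homozygous embryos were higher than all 3 RKI wild types (60.66, 57.07 and 60.18 against 52.08, 56.33 and 48.70 CPM). Over all genes, groups without overlap were seen in 7.16% in LC1 and 5.67% in RKI, and among the members in 1 of 31 in each. The interaction in edgeR was 0.26 on the log2 scale, with a range of 0.21 to 0.34 when 1 library was left out at a time and an adjusted p of 1.0 over 16002 genes, so it did not pass the correction.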

How the results depend on the processing

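With no filter on low counts, edgeR called 4 genes in LC1, 26 in RKI, 17 for the difference between the effects, 28 between the wild types and 45 for sex, and 1 member, Ndn, in each of the last 2 (between the wild types -0.67, adjusted p = 3.09e-13). With transcript sums, added after the data were seen, 4 genes were called in RKI, 3 for the difference and 1 between the wild types, and Copg2 turned to -0.02 in the difference. A replicate block on neighbouring embryo numbers called 3 genes in RKI and 0 in LC1 and no member, but no label states that the numbers pair the embryos. Leaving out 1 library at a time gave 0 to 2 genes in RKI, 0 to 1 for the difference, 1 to 4 between the wild types and 7 to 12 for sex, 0 to 1 transcripts in LC1, 0 to 7 transcripts in RKI, and 1 to 2 pairs called, the pair lost being Peg10 and Asb4. The values without 1 library ran from -0.42 to 0.10 for Peg12 between the wild types, and for sex from -0.06 to 0.45 for Peg12 and from -0.02 to 0.30 for Grb10, with the sign turned only without A9. Of the pairs of members, 4 passed on deviations from the group means (Dlk1 with Meg3 and Igf2 with Dlk1 added). Their p-values are too small, since the 12 deviations were permuted freely while 8 within-group degrees of freedom remain. Within LC1 alone 0 pairs were called, within RKI alone 0, and without the 2 farthest libraries 1. The causes were not tested. No member was called under any other alternative run. The simulation covered LC1 at 2 sizes, so the smallest change that could be recovered there or in RKI is not known.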
